A study of Homo sapiens with 6 samples.

Results

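The desmosome components were examined in HuCCT1, a cell line from a human intrahepatic cholangiocarcinoma, as 10 genes chosen by name: the desmosomal cadherins DSG2, DSG3, DSC2 and DSC3, the armadillo proteins JUP, PKP1, PKP2 and PKP3, and the plakins DSP and PPL. All 10 symbols were found among the 20811 genes of the expression table. HuCCT1/CD90+ cells had received the human THY1-CMV-GFP lentivirus, which carries the CD90 gene, and HuCCT1/CD90− cells had received the Lenti-CMV-GFP-2A-Puro-Blank lentivirus, both at a multiplicity of infection of 40 and in the same medium, so that GFP vectors are common to both. They are called CD90+ and CD90− cells hereafter. Each line gave 3 libraries, and the sources used here do not say whether a line was 1 clone or a pool, or whether its libraries came from separate cultures. The p-values therefore measure the spread between these libraries, which may be technical. Values are in RPM, reads scaled to a common total per library, from the Ion AmpliSeq Transcriptome panel, which reads each gene from 1 short amplicon.

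A desmosome is a spot-like junction that ties the keratin filaments of neighbouring epithelial cells together. Desmogleins and desmocollins are cadherins that bind across the gap between cells. Their tails hold plakoglobin (JUP) and the plakophilins, which in turn hold desmoplakin, and desmoplakin anchors the keratins. DSG2, DSC2 and PKP2 are the isoforms of simple epithelia such as the bile duct lining, whereas DSG3, DSC3 and PKP1 are best known from stratified epithelia such as the epidermis.

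Transcripts of desmosomal cadherins, of plaque armadillo proteins and of plakins were higher in CD90+ than in CD90− cells. In 9 of the 10 genes all 3 CD90+ libraries lay above all 3 CD90− libraries, a pattern that 17.3% of all genes showed. A gene was called when its adjusted p from limma on log2(RPM + 1) was at most 0.05 and its fold change at least 1.5. At these thresholds 8 of the 10 were higher (DSC2, PKP3, DSG3, PPL, DSP, PKP1, PKP2 and DSG2) and 0 were lower, against 7.59% of all 20811 genes called higher and 7.49% called lower. Among the 17006 genes with any read the share called higher was 9.29%. With an unadjusted p of at most 0.05 and the same fold change, the thresholds that the methods of the study name, 9 of the 10 genes were higher and 0 lower, against 10.1% of all genes called higher. The median log2 fold change of the 10 genes was 1.10, with DSC3, which is at the detection floor in both lines, entering near 0, and that of all genes was 0.00. With DSC3 left out and PKP1 set at its bound against the detection floor, the median of the genes was 1.56. That bound, at least 3.78-fold, was taken without the added 1 RPM, unlike the other genes, so this median mixes different scales. The count of 8 was not stable when a library was left out, falling to 5 without CD90− replicate 2 and to 4 without CD90− replicate 3. DSC2, DSP, PKP2 and PKP3 were the 4 genes called in each of these fits, while each of the other 4 calls was lost in at least 1 of them.

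**Figure D1:**
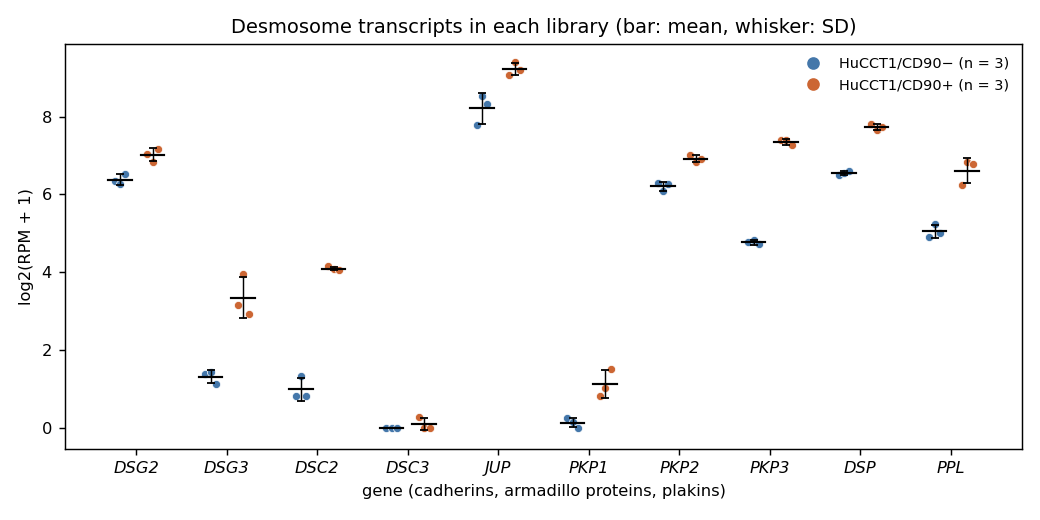
Each point is 1 library, on a log2(RPM + 1) axis, for the 10 desmosome genes ordered as cadherins, armadillo proteins and plakins. Bars are means and whiskers SD over 3 libraries of a line. The CD90+ points lie above the CD90− points in each gene but DSC3, which is at the bottom of the axis in both lines.

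The libraries held 9345680 to 10551516 reads on genes in CD90− and 8587634 to 9327650 in CD90+, so that 3 reads, taken as the detection floor of a library, correspond to 0.284 to 0.349 RPM. These floors and the intervals from read counts cover counting error only. THY1, examined first as a check of the labels, had 0, 1 and 0 reads in CD90− and 435, 445 and 680 reads in CD90+. Both lines carried the keratins of biliary epithelium at high levels, with KRT7 at 3150 to 3796 RPM in CD90− and 3468 to 4027 RPM in CD90+, and KRT19 at 3042 to 3462 and 3900 to 4291 RPM. EPCAM, an epithelial surface protein, was called higher (24.9 to 32.1 against 316 to 416 RPM), while SOX9, a factor of the biliary lineage, had 38.5 to 94.9 and 116 to 125 RPM and was not called. Of 6 fibroblast genes, 5 were called lower, COL1A1 being the exception, and their summed level was 41.8 to 64.9 RPM in CD90− and 20.3 to 24.7 RPM in CD90+. Of 5 endothelial genes CDH5 was called lower, while VWF had at most 4 reads in any library (sum of the list 14.9 to 23.4 against 1.29 to 1.86 RPM), and of 6 hepatocyte genes APOA1 and SERPINA1 were called lower, while ALB had at most 1 read (sum of the list 3.69 to 5.89 against 0.217 to 0.814 RPM). Of 5 leukocyte genes the lysosomal gene CD68 was called higher (sum of the list 46.5 to 56.0 against 83.9 to 100 RPM), while the defining leukocyte gene PTPRC had at most 1 read in any library. Whether these shifts take part in the desmosome values was not tested. In bulk RNA a change in the share of cells that express a gene and a change per cell cannot be told apart.

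Proximal promoters are shown for DSP, DSC2, DSG2, DSG3 and JUP, since the repressor genes ZEB1 and SNAI1, whose proteins bind the E-box CACCTG, were among the regulators measured. On the opposite strand this motif reads CAGGTG. RefSeq windows of GRCh38.p14, from 250 bases before to 50 bases after a transcript start, were found for 7 of the 10 genes (DSP, DSC2, DSC3, DSG2, DSG3, PKP1 and JUP), with 9 windows in all. The E-box is in capitals. The sequences are written 5′ to 3′ on the strand of the gene, and the last one is shown because it holds no E-box.
DSP, chr6:7541421-7541720, plus strand: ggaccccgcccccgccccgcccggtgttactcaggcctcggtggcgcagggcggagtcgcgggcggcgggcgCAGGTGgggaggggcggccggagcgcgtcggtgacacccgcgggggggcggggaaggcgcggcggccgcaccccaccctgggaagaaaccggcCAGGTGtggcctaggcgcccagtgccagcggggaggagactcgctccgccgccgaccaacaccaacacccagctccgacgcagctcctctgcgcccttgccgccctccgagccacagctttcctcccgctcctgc
DSC2, chr18:31102372-31102671, minus strand: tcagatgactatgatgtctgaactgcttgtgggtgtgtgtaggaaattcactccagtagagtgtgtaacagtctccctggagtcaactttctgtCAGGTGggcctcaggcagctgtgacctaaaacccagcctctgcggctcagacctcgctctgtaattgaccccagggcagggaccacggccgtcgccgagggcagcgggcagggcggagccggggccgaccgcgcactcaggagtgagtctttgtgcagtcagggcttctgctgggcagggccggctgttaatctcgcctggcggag
DSG2, chr18:31497927-31498226, plus strand: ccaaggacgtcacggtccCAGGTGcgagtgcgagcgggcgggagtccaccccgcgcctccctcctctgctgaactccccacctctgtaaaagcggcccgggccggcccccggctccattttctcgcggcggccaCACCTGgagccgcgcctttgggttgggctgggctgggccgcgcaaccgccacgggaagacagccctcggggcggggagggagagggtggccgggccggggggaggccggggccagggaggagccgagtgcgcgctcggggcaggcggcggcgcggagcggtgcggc
JUP, chr17:41785927-41786226, minus strand: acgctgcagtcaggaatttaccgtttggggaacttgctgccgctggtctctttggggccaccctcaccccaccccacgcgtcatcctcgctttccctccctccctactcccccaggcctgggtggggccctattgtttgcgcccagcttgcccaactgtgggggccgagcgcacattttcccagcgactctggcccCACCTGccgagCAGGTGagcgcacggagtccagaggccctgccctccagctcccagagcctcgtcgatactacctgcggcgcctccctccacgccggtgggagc
DSG3, chr18:31447491-31447790, plus strand: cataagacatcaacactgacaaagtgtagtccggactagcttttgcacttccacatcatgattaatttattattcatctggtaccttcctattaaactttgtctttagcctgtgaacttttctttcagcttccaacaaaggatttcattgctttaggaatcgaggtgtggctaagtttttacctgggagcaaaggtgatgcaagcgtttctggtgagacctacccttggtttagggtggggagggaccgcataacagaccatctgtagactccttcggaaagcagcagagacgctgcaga

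Searched on both strands, CACCTG was found in 4 of these 9 windows, those of 4 genes, and in 20.6% of all 35116 windows of the same length. DSP held 2 matches, 178 and 85 bases before the start. DSG2 also held 2, at 232 and 116 bases before the start, and DSC2 held 1, at 156 bases. JUP held 2 matches, 54 and 43 bases before the second of its 2 listed starts, and none in the window of the other start. The other window of DSC2 and those of DSC3, DSG3 and PKP1 held none. In base composition, the windows with the E-box were 60.7% to 77% G or C, those without it 63.3% to 67.3% except that of DSG3 with 44%, and the median of all windows was 58.7%, and the shares of all windows given here were not matched for it. Motifs of other factors were searched in the same way. The SP1 box GGGCGG was found in DSP, DSC2, DSG2, PKP1 and JUP, with 8 matches in the DSP window (77% G or C), and in 45.0% of all windows. The core AACCNGTT of grainyhead-like factors and the AP-1 motif (TGA and TCA with any 1 base between them) were found in 0 of the 9 windows, and in 1.73% and 7.71% of all windows. These matches describe letters in a window and do not show that a factor binds there.

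Among the desmosomal cadherins, DSC2 showed the largest fold change. DSC2, the desmocollin of simple epithelia, had 0.758, 1.498 and 0.776 RPM in CD90− (8, 14 and 8 reads) and 16.7, 15.8 and 15.7 RPM in CD90+ (156, 136 and 145 reads). The 3 CD90+ values lay close together and far above the CD90− values. The CD90− mean was 1.01 ± 0.422 RPM and the CD90+ mean 16.1 ± 0.545 RPM (SD, n = 3 each), so that the log2 fold change was 3.11 (standard error, SE, 0.16, limma adjusted p = 0.0012), and its rise ranked 116 among all genes. Since log2(RPM + 1) understates changes from a low level, the ratio of summed reads, scaled to depth, is given as well. It was 16.2, with a 95% interval of 11.2 to 24.3 from the read counts.

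DSG2, the desmoglein found in all desmosome-bearing tissues, had 79.8, 75.5 and 91.7 RPM in CD90− and 131, 113 and 144 RPM in CD90+. The groups did not overlap, but the step was the smallest of the 8 called genes, with a log2 fold change of 0.64 (SE 0.12, limma adjusted p = 0.031). It passed only narrowly: the adjusted p was 0.085 when the median change of the 50 neighbouring genes was removed from the RPM values, and leaving out any library other than CD90+ replicate 2 took the gene past 0.05 (adjusted p up to 0.10).

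DSG3, a desmoglein of stratified epithelia and the pemphigus vulgaris antigen, had 1.61, 1.71 and 1.16 RPM in CD90− and 7.93, 14.4 and 6.62 RPM in CD90+. CD90+ replicate 2 was well above the other libraries of its line, which in turn lay above all of CD90−. The log2 fold change was 2.03 (SE 0.31, limma adjusted p = 0.017), and the ratio of summed reads was 6.41 (interval 4.66 to 9.002). The gene passed the threshold without CD90+ replicate 2 or 3, but leaving out any other library took it past 0.05 (adjusted p up to 0.067). DSC3, the desmocollin of the basal epidermis, had 2 reads in CD90+ replicate 1 and 0 reads in the other 5 libraries, so that it was not detectable in either line at this depth and its change is not interpreted.

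The 4 cadherins lie together on chromosome 18, where GENCODE 29 places the 7 desmosomal cadherin genes within 559 kb of GRCh38, from 30990008 to 31549008, in the order DSC3, DSC2, DSC1, DSG1, DSG4, DSG3 and DSG2. The expression table holds no coordinates, and the processing notes name hg19, so these positions come from the gene symbols alone. DSC1, DSG1 and DSG4 had 0 reads in all 6 libraries. DSC2, the second gene of the cluster, thus lies between DSC3 with 2 reads and DSC1 with 0, while DSG3 and DSG2 are neighbours at the other end. The nearest genes of the table outside the cluster were CDH2 (N-cadherin) on the DSC3 side, which went from 134 to 107 RPM (log2 fold change -0.32), and TTR on the DSG2 side, with 0 reads. Counted from the start of DSC3, CDH2 starts at -3039 kb and TTR at 567 kb, so CDH2 is not close to the cluster. B4GALT6, the gene after TTR, stood at -0.90 on the log2 fold scale (limma adjusted p = 0.072). The median change of the 50 nearest expressed genes was 0.20. When the CD90+ RPM values were divided by this shift before the offset of 1 RPM was added, so that low genes moved by less than the shift itself, the log2 fold changes were 2.92 for DSC2, 1.86 for DSG3 and 0.45 for DSG2.

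**Figure D2:**
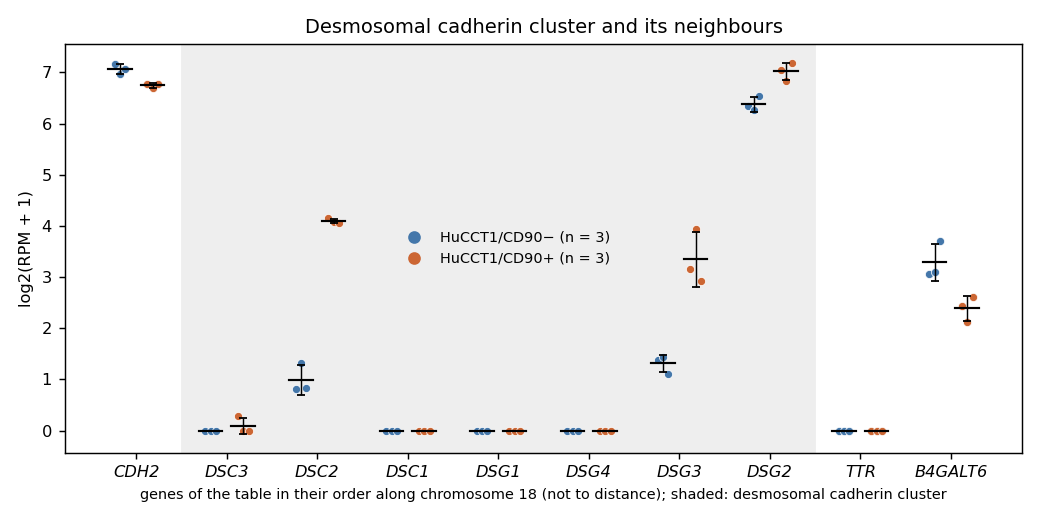
Levels of each library on a log2(RPM + 1) axis for the genes of the table in their order along chromosome 18, with the 7 desmosomal cadherin genes shaded. Bars are means and whiskers SD (n = 3). DSC2, DSG3 and DSG2 are higher in CD90+, while CDH2 and B4GALT6 outside the cluster have lower means there. The spacing of the genes does not follow distance.

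In the plaque, the plakophilins differed in the size of their change. PKP3, which is found in desmosomes of most simple and stratified epithelia, had 26.3, 27.6 and 25.2 RPM in CD90− and 168, 168 and 152 RPM in CD90+. The CD90− mean was 26.4 ± 1.19 RPM and the CD90+ mean 163 ± 9.10 RPM (SD, n = 3 each), for a log2 fold change of 2.58 (SE 0.06, limma adjusted p = 0.00027), the smallest adjusted p of the 10 genes. The gene lies at 392614 to 404908 of chromosome 11 (GRCh38, GENCODE 29, as for the positions that follow), where the median change of its 50 neighbours was 0.36, and its log2 fold change with this shift removed in the same way was 2.22. PKP2, the plakophilin of simple epithelia and heart, lies on chromosome 12 from 32790745 to 32896840. It had 77.5, 66.7 and 76.2 RPM in CD90− and 128, 113 and 120 RPM in CD90+. The groups did not overlap, and the log2 fold change was 0.71 (SE 0.08, limma adjusted p = 0.0082).

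PKP1, the plakophilin of the upper epidermis, on chromosome 1 from 201283452 to 201332993, was near the detection floor. It had 2, 1 and 0 reads in CD90− and 7, 9 and 17 reads in CD90+. The mean was 0.0990 ± 0.0953 RPM in CD90− and 1.21 ± 0.566 RPM in CD90+, with a log2 fold change of 0.98 (SE 0.21, limma adjusted p = 0.041). The ratio of summed reads was 12.2, with an interval from 3.84 to 62.4 that reflects the 3 reads of CD90−. The intervals of PKP1 and DSG3 both contain the ratio of PKP3 (6.17), so that these 3 genes cannot be ordered by it. With the replicate number as a block the adjusted p was 0.14, so the call of PKP1 does not hold in the paired fit. Leaving out any CD90− library or CD90+ replicate 2 also ended it (adjusted p up to 0.13), as did an offset of 5 RPM (adjusted p = 0.068).

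JUP, on chromosome 17 from 41754604 to 41786931, whose product plakoglobin serves both desmosomes and adherens junctions, had the highest values of the 10 genes. It had 218, 372 and 321 RPM in CD90− and 540, 673 and 589 RPM in CD90+. The lines did not overlap, but CD90− replicate 1 lay well under the other libraries of its line. The mean was 303 ± 78.4 RPM in CD90− and 601 ± 67.1 RPM in CD90+, a log2 fold change of 1.01 (SE 0.23, 95% interval 0.39 to 1.64) that missed the threshold in limma (adjusted p = 0.051). On recovered reads it passed with edgeR (adjusted p = 8.1e-05 with a filter on low counts) and with DESeq2 (adjusted p = 2.8e-07). In limma it passed when only genes averaging 1 RPM or more were tested (adjusted p = 0.0021) and with median centring (adjusted p = 0.0155). It also passed in limma without CD90− replicate 1 (log2 fold change 0.79, adjusted p = 0.047). Limma did not call it with quantile normalization (adjusted p = 0.0555), trend and robust settings (adjusted p = 0.059) or the replicate number as a block (adjusted p = 0.0596). Leaving out any other library did not bring it under 0.05 either (limma adjusted p up to 0.146).

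The plakins link the plaque to keratin. DSP, the gene of desmoplakin and the obligate plakin of every desmosome, had 90.0, 92.7 and 96.6 RPM in CD90− and 225, 202 and 213 RPM in CD90+. The spread within each line was small beside the step between them, and the log2 fold change was 1.19 (SE 0.05, limma adjusted p = 0.00080). DSP lies on chromosome 6 from 7541575 to 7586717, among genes whose median change was -0.14, and its log2 fold change with this shift removed in the same way was 1.33. PPL, the gene of periplakin, which binds keratins and is best known from the cornified envelope, had 29.1, 36.9 and 31.0 RPM in CD90− and 74.4, 112 and 109 RPM in CD90+. PPL lies on chromosome 16 from 4882507 to 4960741. All 3 CD90+ values were above the CD90− values, with replicate 1 the lowest of them, and the log2 fold change was 1.56 (SE 0.20, limma adjusted p = 0.012). Leaving out CD90− replicate 3 or CD90+ replicate 3 moved PPL just past the threshold, to an adjusted p of 0.052 and 0.051.

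**Figure D3:**
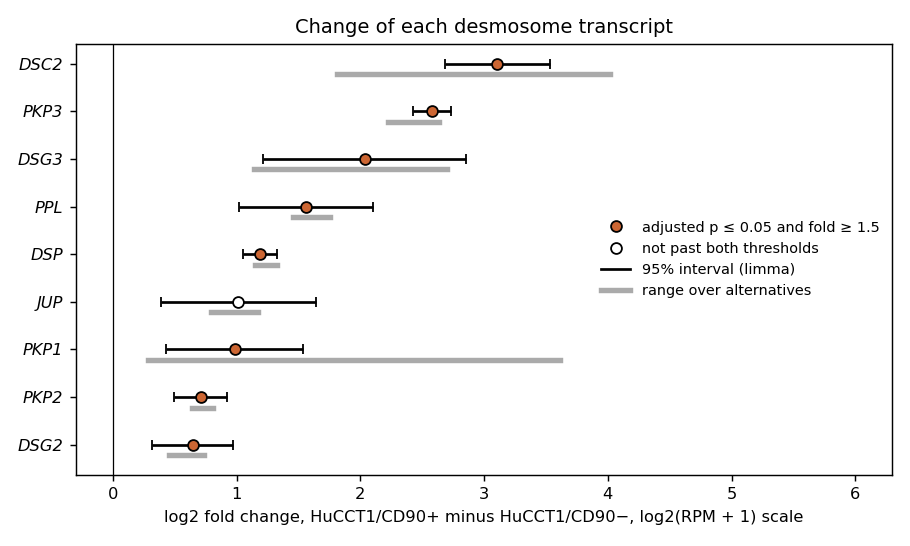
Log2 fold changes of the desmosome genes other than DSC3 (CD90+ minus CD90−, log2(RPM + 1) scale) with 95% intervals from limma. Filled points passed both thresholds, and grey bars span the values under the alternatives. These include other offsets, edgeR and DESeq2, so for low genes the bars also reflect changes of scale. On this scale DSC2 and PKP3 have the largest fitted changes, and JUP is the open point.

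The order of the levels was compared within each line. These are RPM of 1 amplicon per gene, which need no correction for length but depend on how well each amplicon is copied. In CD90− the order by mean was JUP, DSP, DSG2, PKP2, PPL, PKP3, DSG3, DSC2, PKP1 and DSC3. The ranges of DSP and DSG2, of DSG2 and PKP2, of DSG3 and DSC2 and of PKP1 and DSC3 overlapped, so these neighbours cannot be ordered. In CD90+ it was JUP, DSP, PKP3, DSG2, PKP2, PPL, DSC2, DSG3, PKP1 and DSC3, and only DSG2 and PKP2 overlapped among neighbours. PKP3 moved from the place after PPL to the place after DSP.

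Ratios of related genes within a library, in which library size cancels apart from the offset of 1 RPM, showed which members shifted relative to each other. The log2 ratio of PKP3 to PKP2 was -1.52, -1.24 and -1.56 in CD90− and 0.39, 0.56 and 0.34 in CD90+, a difference of 1.87. PKP2 had the higher value in each CD90− library and PKP3 in each CD90+ library. The log2 ratio of DSG3 to DSG2 had a mean of -5.06 in CD90− and -3.68 in CD90+, a difference of 1.39 that was 0.52 with an offset of 5 RPM, at which the lines overlapped (exact permutation p = 0.20). JUP was also set against CTNNB1, the gene of its close relative β-catenin. CTNNB1 had 998, 834 and 954 RPM in CD90− and 485, 418 and 462 RPM in CD90+ (log2 fold change -1.03, limma adjusted p = 0.0048), and the log2 ratio of JUP to CTNNB1 was -2.19, -1.16 and -1.57 in CD90− and 0.16, 0.68 and 0.35 in CD90+. EVPL, the gene of envoplakin, the partner of periplakin, had a log2 ratio to PPL of 1.44 ± 0.293 in CD90− and 0.57 ± 0.0853 in CD90+ (SD, n = 3 each).

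A ratio of DSC3 to DSC2 was computed as well but restates the values of DSC2, since DSC3 is at the floor, and is not read as a shift. The exact two-sided permutation test gave p = 0.10 for 5 of the 6 pairs, that one included, the smallest value that 3 against 3 libraries allow, and p = 0.40 for PKP1 to PKP2. After adjustment over the 6 pairs these were 0.12 and 0.40, so no ratio could pass a threshold of 0.05 in this design. With the offset of 1 RPM the lines did not overlap in the ratios of PKP3 to PKP2, DSG3 to DSG2, JUP to CTNNB1 and EVPL to PPL. The ratio of PKP1 to PKP2 depended on the offset, since PKP1 was near the floor. Its difference between the lines was 0.28 at 1 RPM, 2.05 at 0.1 RPM (exact permutation p = 0.10) and -0.40 at 5 RPM (exact permutation p = 0.10). It is therefore not read as a shift or as the lack of one.

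**Figure D4:**
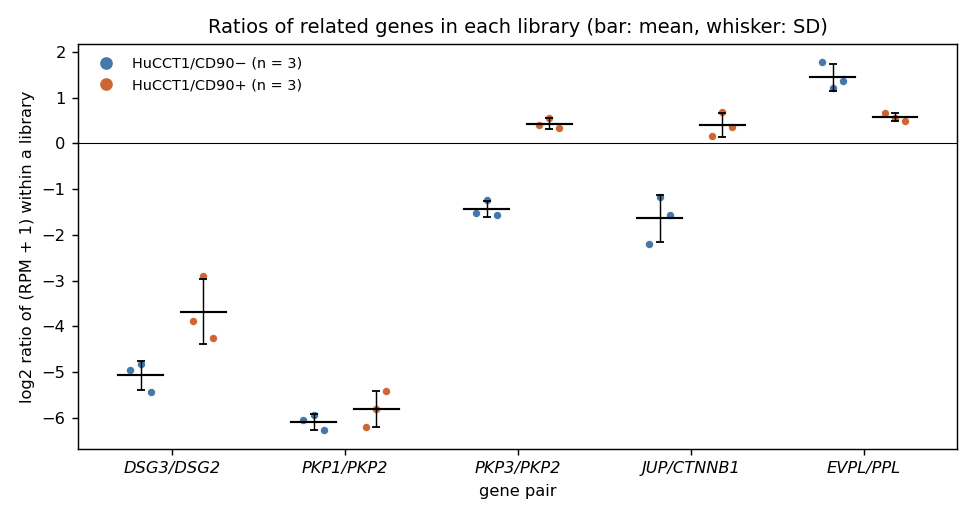
Log2 ratios of (RPM + 1) between 5 pairs of related genes within each library, with means and SD (n = 3). The PKP3 to PKP2 and JUP to CTNNB1 ratios lie under 0 in CD90− and above 0 in CD90+. The PKP1 to PKP2 ratios overlap at this offset of 1 RPM, on which they depend.

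Other genes of the desmosome were taken from a list of 7. Of these, 1 was called higher and 0 lower, and 3 (DSC1, DSG1 and DSG4) had no read. PKP4, an armadillo protein of the plakophilin and p120 family, had 14.0 ± 1.81 RPM in CD90− and 24.2 ± 1.36 RPM in CD90+ (SD, n = 3 each), for a log2 fold change of 0.75 (limma adjusted p = 0.015, or 0.087 with the replicate number as a block). EVPL had 101.5, 86.0 and 81.6 RPM in CD90− and 118, 166 and 154 RPM in CD90+, without overlap but short of the threshold (adjusted p = 0.056, limma). PERP, a membrane protein of desmosomes, had 0.853 to 1.72 RPM over all 6 libraries, and KAZN, whose product binds periplakin, was under 1 RPM. Where the amplicons of these genes lie is not given in the sources used here, so a low value does not show that a gene is off.

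The neighbouring junction systems were read from lists of their own. Of 12 adherens junction genes 3 were called higher and 3 lower. CDH1 (E-cadherin) had a log2 fold change of 3.89 and CDH3 (P-cadherin) of 2.31, and NECTIN4 went from 0.738 to 10.1 RPM. Beside CTNNB1, the lower genes were NECTIN3 (log2 fold change -1.56, adjusted p = 0.011, or 0.082 with the replicate number as a block, limma) and CTNND1. CTNND1, the gene of p120-catenin, which holds classical cadherins at the membrane, had 114, 79.3 and 85.9 RPM in CD90− and 2.36, 2.10 and 3.69 RPM in CD90+. Its log2 fold change was -4.67 (SE 0.23, limma adjusted p = 0.0011). CTNND1 is known to be spliced in several ways, and which isoforms its amplicon reads is not given in the sources used here. The median of the adherens junction list was 0.38, against 1.10 for the desmosome genes. The difference between the lists was not tested.

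Of 6 hemidesmosome genes, which tie keratin to the basement membrane rather than to a neighbouring cell, 2 were called higher and 0 lower, with a median log2 fold change of -0.18. COL17A1 rose from 53.2 ± 7.55 to 281 ± 14.6 RPM and CD151 from 365 ± 29.2 to 648 ± 30.6 RPM (SD, n = 3 each). ITGB4, the integrin chain that marks the structure, ranged from 362 to 1094 RPM in CD90− and from 228 to 769 RPM in CD90+, and the lines overlapped. The plakins PLEC and DST had log2 fold changes of -0.33 and -0.04, neither of which passed the test (limma, adjusted p = 0.41 and 0.96).

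Of 10 keratins, the filaments that desmosomes anchor, 2 were called higher and 2 lower. KRT18 rose from 645 ± 30.1 to 1266 ± 78.2 RPM and KRT15 from 22.1 ± 2.38 to 73.1 ± 7.27 RPM. KRT14, of the basal layer of stratified epithelia, fell from 85.6 ± 40.3 to 1.94 ± 0.371 RPM, and KRT17 from 142 ± 6.56 to 40.2 ± 4.35 RPM. KRT8, the partner of KRT18, differed by 0.52 on the log2 scale (limma adjusted p = 0.039), under the minimum fold change, and KRT7 by 0.09, which did not pass. Of 7 stratified epithelial markers 1 (KRT15) was called higher and 2 lower, and KRT1 and IVL had no reads. TP63, the regulator of stratified epithelia, was lower (log2 fold change -2.28, limma adjusted p = 0.0053). DSG3, PKP1 and KRT15 stood higher in the line in which TP63 and KRT14 stood lower. The calls of DSG3 and PKP1 did not hold in every fit, as given above.

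Of 13 regulators of epithelial junction genes 7 were called higher and 4 lower. The grainyhead-like genes GRHL1, GRHL2 and GRHL3 had log2 fold changes of 3.01, 4.07 and 2.44, and OVOL1 and OVOL2, which encode zinc-finger repressors of mesenchymal genes, of 4.15 and 3.41. KLF4 and KLF5 were higher by 2.47 and 0.74 on the log2 scale, and with the replicate number as a block neither was called (adjusted p = 0.056 and 0.11, limma). ZEB1, ZEB2 and SNAI1, which encode repressors that bind the E-box printed above, were lower with TP63. ZEB1 fell from 31.6 ± 3.49 to 0.772 ± 0.0802 RPM, SNAI1 from 22.9 ± 7.72 to 4.38 ± 1.08 RPM, and ZEB2 had 0 reads in CD90+, at least 10.2-fold lower than in CD90− against the floor of 3 reads per library. SNAI2 had 37.8 ± 4.55 and 36.3 ± 6.87 RPM, and TWIST1 had no reads. Whether any of these factors acts on the desmosome genes was not tested.

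**Figure D5:**
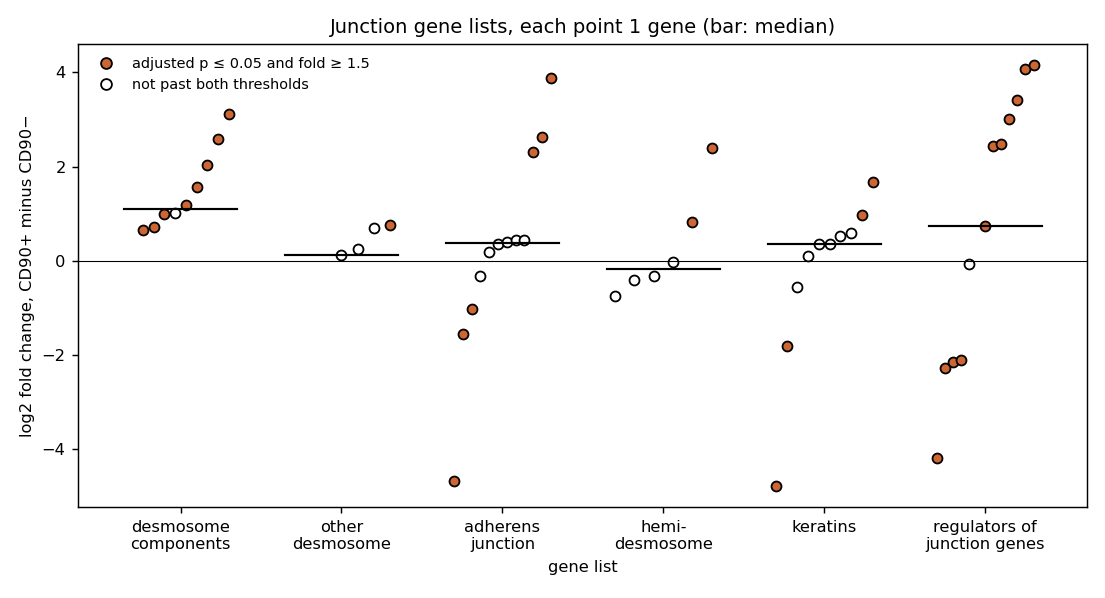
Log2 fold change of each gene of the 6 lists (CD90+ minus CD90−, log2(RPM + 1) scale), with filled points for genes past both thresholds and a bar at the median of each whole list. Genes at or under the detection floor in both lines, DSC3 among them, are not drawn. The other 9 desmosome components lie above 0, while each of the other lists but that of other desmosome genes has points on both sides of 0.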

How the data were processed

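Whole-transcriptome libraries of CD90− and CD90+ cells (3 each) were analysed. The authors counted amplicon reads (ampliSeqRNA plugin) and deposited them as RPM, reads scaled to a common total on the panel. Per the labels, hg19 and the Transcriptome Analysis Console were used. The values were whole multiples of 1 read (tolerance 0.1 reads), and whole reads were recovered for 100% of them. No molecular identifiers are named in the sources used here. No 2 libraries were copies of each other.

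Deposited RPM values were tested as log2(RPM + 1) with limma 3.58.1 in R 4.3.3 (lmFit, eBayes, two-sided) over all 20811 genes without a filter, with Benjamini-Hochberg adjustment. DESeq2 1.42.0 and edgeR 4.0.16 were run on recovered reads as alternatives, besides offsets of 0.1 and 5 RPM, filters on low values, quantile normalization, median centring, trend and robust settings, other thresholds, a replicate block, leaving out each library, and removing the median change of 50 neighbouring genes from the RPM values (18609 genes had a position). limma, edgeR and DESeq2 were tested on simulated data. The genes named are the 10 desmosome genes, THY1, members of the lists and neighbours in the cadherin cluster. For biliary epithelium, 1 listed marker is not reported here. The members and lists were chosen with earlier results of these data known, and the promoter motifs after the values were seen.

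Replicate numbers were checked for pairing: same-numbered libraries had correlations of 0.21, 0.32 and 0.18 between their deviations from the line means, and others -0.29 to 0.07. On this basis only, and not from the labels, libraries were treated as paired in the block fit.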

Additional observations from a re-analysis of the deposited data

How the results depend on the processing

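The direction of the 9 desmosome genes other than DSC3 was kept under each alternative that tested it, and 0 were called lower in any. The 8 called genes became 4 to 7 when 1 library was left out, 5 at a minimum fold change of 2, 7 at an offset of 5 RPM (PKP1 lost) and 9 with median centring, edgeR without a filter, DESeq2 and unadjusted p. Filters left 8 of 8 genes tested (1 RPM) and 6 of 6 (10 RPM), where 2018 of 12062 and 1368 of 8794 genes in all were called higher. Over the 20811 genes, 952 were called higher at a minimum fold change of 2, 1248 at the 5 RPM offset and 1857 with median centring, and 2173 of 17006 with DESeq2. The count was 7 with the replicate block, which ended the calls of PKP1, PKP4, NECTIN3, KLF4 and KLF5 and changed no other call of the 6 lists. Of the 5 other lists, that of other desmosome genes moved from 1 higher gene to 2 when only genes averaging 1 or 10 RPM or more were tested, with median centring, edgeR, DESeq2 and unadjusted p, and to 0 with the replicate block and a minimum fold of 2 (0 to 1 without 1 library). The hemidesmosome list had 1 higher gene, not 2, after removal of the neighbours' shift or at a minimum fold of 2, and 1 lower gene with edgeR without a filter. The keratins had 1 higher at a minimum fold of 2, and the regulators 4 higher and 2 lower when only genes averaging 10 RPM or more were tested, since fewer were tested. The difference between the lines in the log2 ratio of PKP1 to PKP2 was 2.05 at an offset of 0.1 RPM and changed sign at 5 RPM (-0.40). At 5 RPM that of DSG3 to DSG2 moved from 1.39 to 0.52 and that of DSC3 to DSC2, which follows DSC2, from -3.01 to -1.79. With 0 to 2 reads of PKP1, 8 to 14 of DSC2 and 12 to 17 of DSG3 per CD90− library, and 2 of DSC3 in all, depth limits these genes most. Over all genes, 1580 higher and 1558 lower calls became 1091 and 1011 with the replicate block, 960 to 1174 and 908 to 1240 when 1 library was left out, and 2357 and 2332 at most, with edgeR without a filter.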
